A study of Bos taurus with 48 samples.

Results

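JAK2, CD274, IL15RA and CXCL10 are 4 of the 25669 Ensembl genes whose reads were counted in bovine leukocytes. The genes belong to interferon and interleukin signalling, and were taken by gene identifier (ENSBTAG00000012047, ENSBTAG00000000095, ENSBTAG00000006078 and ENSBTAG00000001725). They were selected on their log2 changes in these same libraries, since 1 or more of them had changed in comparisons of d 2 and d 7. The 4 comparisons in question (weaned calves on d 2 and on d 7 against d 0, control calves on d 7 against d 0, and weaned against control calves on d 7) are therefore described without a test for all 4 genes. Their libraries, of d 0 above all, also enter the tests of change given below except those between treatments on d 1. They enter the correlations of d 0 as well. All of these tests are therefore not independent of how the genes were chosen. The study followed beef calves of Continental breeding, intact males that had grazed with their dams, through housing on d 0. Weaned calves were separated from the dam at housing, and control calves were housed with the dam, so that housing was common to both treatments and d 0 preceded it in both. Total leukocytes of 12 calves (6 per treatment) were sequenced on d 0, 1, 2 and 7, which gives 48 libraries in 8 groups of 6.

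Total counts per library were between 1662995 and 4256011, with a median of 3600161. The lowest total was that of control calf 1759 on d 2. Values of single genes are given as CPM (counts relative to library size, scaled to 1000000, with library sizes scaled by TMM, the trimmed mean of M-values), on which 3 counts equal 0.686 to 2.08 CPM. This floor covers counting error only. All 4 genes were counted in every library, with 8259 counts in total for JAK2, 3135 for CD274, 4412 for IL15RA and 2033 for CXCL10. One library of 48 held 3 or fewer counts of a gene, which was CXCL10 in control calf 1789 on d 7. A gene-length table of the build of the counts was not used here, so levels are compared between libraries and not between genes.

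Interferons bind receptors at the cell surface and signal through Janus kinases, which phosphorylate STAT transcription factors. JAK2 is the kinase bound to the second chain of the interferon gamma receptor, and it also serves the receptors of several growth factors and interleukins. CXCL10 encodes a chemokine named for its induction by interferon gamma, which attracts T cells and NK cells through the receptor CXCR3. CD274 encodes PD-L1, an inhibitory ligand that binds PD-1 on T cells and that interferon gamma is known to induce. IL15RA encodes the chain of the interleukin 15 receptor that presents interleukin 15 to NK cells and memory T cells. In the RefSeq gene order of the bovine assembly ARS-UCD2.0, which is not the build of the counts and was used for names only, all 4 symbols were found. There CD274 and JAK2 are separated by 3 genes (PLGRKT, INSL6 and LOC132346030), and IL15RA and CXCL10 are on other chromosomes.

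Some libraries resembled another calf more than their own. After removal of 3 principal components, the mean correlation with the libraries of the same calf on other days was the highest for 37 of 48 libraries, and another calf came first for 11. The library labelled weaned calf 1758 on d 7 had a mean r of -0.07 with its own calf and of 0.32 with calf 1770. The library labelled weaned calf 1770 on d 7 had a mean r of 0.04 with its own calf and of 0.21 with calf 1758. All 8 libraries of control calves 1755 and 1759 were among the 11, and their r with their own calf was at most 0.10. Those of calf 1755 were closest to calf 1759 on d 1 and d 7, to calf 1789 on d 2 and to weaned calf 1762 on d 0, and those of calf 1759 to calf 1755 on d 2 and to weaned calf 1809 on d 0, 1 and 7. The eleventh was weaned calf 1762 on d 2 (0.15 with its own calf and 0.25 with control calf 1789). An exchange within a treatment and day leaves group means as they are but not within-calf changes, whereas an exchange across treatments would alter both. Neither was tested, and values without these calves are given for several of the changes that use them.

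CD274, IL15RA and CXCL10 shared their highest libraries, and JAK2 had others. Weaned calf 1762 on d 2 was the highest of the 48 libraries for CD274 (126 CPM), for IL15RA (149 CPM) and for CXCL10 (84.4 CPM). That library had the lowest total count (2605496), TMM factor (0.89) and number of genes with a count (13341) of the weaned libraries, and the part of these in its levels was not tested. Control calf 1789 on d 2 was the second highest for the same genes, with 67.0 CPM of CD274, 79.5 CPM of IL15RA and 44.7 CPM of CXCL10. Of the 11884 genes with a mean of at least 5 counts, 58 (0.488%) had these libraries as their highest pair. Besides CD274, IL15RA and CXCL10, they included NMUR2, a neuromedin U receptor, SLC6A2, the noradrenaline transporter, and TIAM2, an exchange factor for Rac. Weaned calves on d 2 against d 0 was among the comparisons by which the genes were chosen, so nothing is read from the share of 0.488%. For JAK2 the same libraries ranked 6 and 11 of 48, at 80.5 and 59.0 CPM. One of these calves was weaned and the other was not. A day earlier, calf 1762 had 19.9 CPM of CD274, 35.5 CPM of IL15RA and 11.1 CPM of CXCL10, and calf 1789 had 6.66, 18.4 and 2.93 CPM.

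The third high profile was that of control calf 1803, which was high before housing. Its CD274 level was 66.8, 33.6 and 42.7 CPM on d 0, 1 and 2 and 8.92 CPM on d 7. Its IL15RA level was 57.8, 36.2 and 50.3 CPM on the same days and 12.4 CPM on d 7, the lowest of the control calves on that day. Its CXCL10 level was 33.2, 31.9 and 38.8 CPM and then 5.41 CPM. This calf thus left the high range between d 2 and d 7 for 3 genes, whereas its JAK2 level was 64.0, 33.3, 45.3 and 31.9 CPM and remained within the range of the other control calves on every day.

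**Figure D1:**
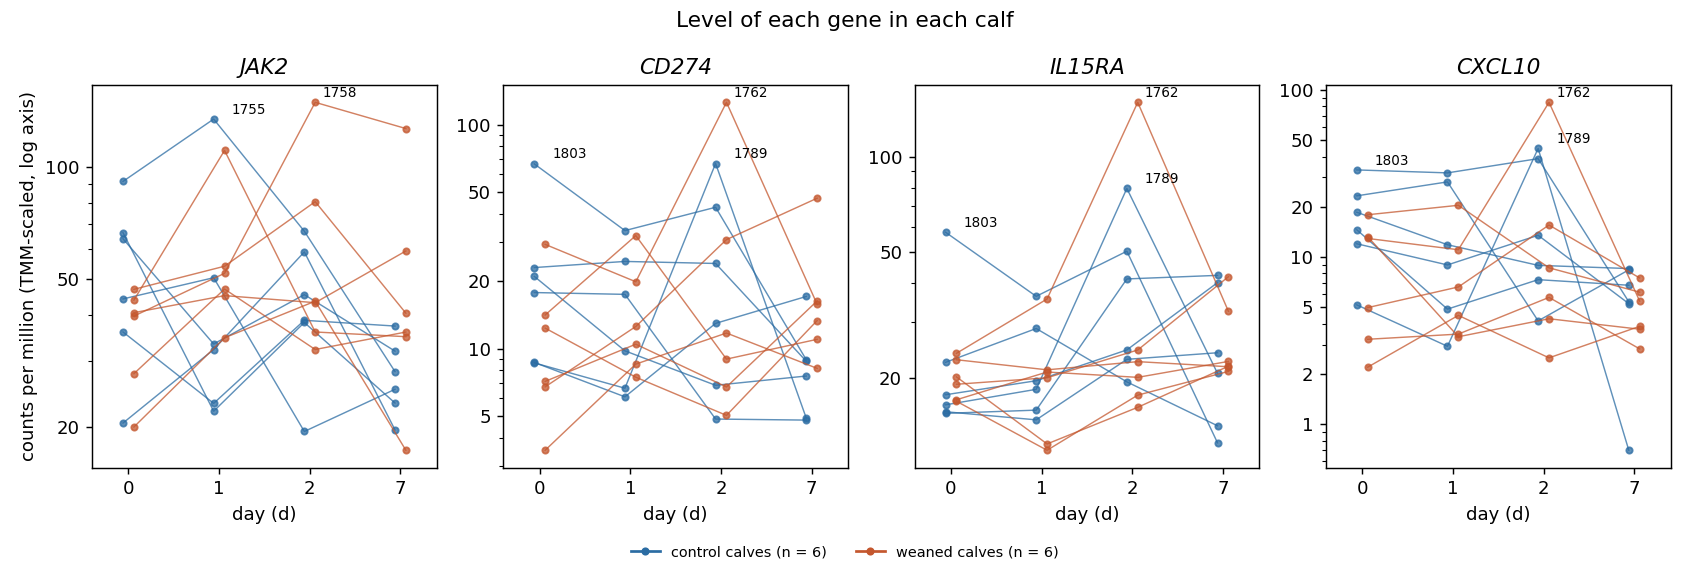
Level of each gene (TMM-scaled CPM, log axis) in each of 12 calves on d 0, 1, 2 and 7, with 1 line per calf, control calves in blue and weaned calves in orange. For CD274, IL15RA and CXCL10 the highest point is weaned calf 1762 on d 2 (126, 149 and 84.4 CPM) followed by control calf 1789 on d 2, while the highest point for JAK2 is weaned calf 1758 on d 2 (149 CPM).

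JAK2 ranged from 17.3 CPM (weaned calf 1809, d 7) to 149 CPM (weaned calf 1758, d 2), a range of 8.62-fold. In control calves the lowest, median and highest levels were 20.4, 54.0 and 91.2 CPM on d 0, and 22.0, 32.8 and 134 CPM on d 1. They were 19.4, 41.9 and 67.0 CPM on d 2, and 19.6, 26.7 and 37.3 CPM on d 7, so that the spread between control calves was narrowest on d 7. In weaned calves they were 19.9, 40.1 and 46.8 CPM on d 0, and 34.7, 49.2 and 111 CPM on d 1. They were 32.2, 43.3 and 149 CPM on d 2, and 17.3, 38.1 and 127 CPM on d 7, where the highest value was that of the library labelled calf 1758. Group means ran from 27.5 ± 6.35 CPM (SD, n = 6) on d 7 in control calves to 64.0 ± 45.0 CPM (SD, n = 6) in weaned calves on d 2. The groups overlapped for all 7 pairs of neighbours in that order.

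CXCL10 ranged from 0.70 CPM (control calf 1789, d 7) to 84.4 CPM (weaned calf 1762, d 2), the latter in a calf with 12.9 CPM on d 0 and 5.46 CPM on d 7. In control calves the lowest, median and highest levels were 5.18, 16.6 and 33.2 CPM on d 0, and 2.93, 10.4 and 31.9 CPM on d 1. They were 4.16, 11.2 and 44.7 CPM on d 2, and 0.70, 6.10 and 8.55 CPM on d 7. In both treatments the highest level on d 7 was below the d 0 median. In weaned calves the levels were 2.20, 8.96 and 17.9 CPM on d 0, and 3.34, 5.56 and 20.4 CPM on d 1. They were 2.50, 7.19 and 84.4 CPM on d 2, and 2.83, 4.66 and 7.51 CPM on d 7. Group means were lowest on d 7 in weaned calves (4.92 ± 1.76 CPM, SD, n = 6) and highest on d 2 in weaned calves (20.2 ± 31.8 CPM, SD, n = 6), and neighbours in the order of means overlapped in 7 of 7 pairs.

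CD274 ranged from 3.52 CPM (weaned calf 1809, d 0) to 126 CPM (weaned calf 1762, d 2), a range of 35.7-fold. In control calves the lowest, median and highest levels were 8.64, 19.4 and 66.8 CPM on d 0, and 6.09, 13.6 and 33.6 CPM on d 1. They were 4.85, 18.5 and 67.0 CPM on d 2, and 4.80, 8.17 and 17.1 CPM on d 7. The highest d 7 level was that of calf 1802, the only control calf whose CD274 was higher on d 7 than on d 0. In weaned calves the levels were 3.52, 9.75 and 29.2 CPM on d 0, and 7.45, 11.5 and 32.0 CPM on d 1. They were 5.04, 10.4 and 126 CPM on d 2, and 8.17, 14.6 and 46.9 CPM on d 7. Means ran from 8.67 ± 4.51 CPM (SD, n = 6) on d 7 in control calves to 31.5 ± 47.1 CPM (SD, n = 6) in weaned calves on d 2, and the groups overlapped between all 7 neighbours.

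IL15RA was the least variable of the 4 genes among weaned calves before housing, with 16.8, 19.6 and 23.9 CPM as the lowest, median and highest levels on d 0. Those levels were 11.8, 20.4 and 35.5 CPM on d 1, and 16.1, 21.3 and 149 CPM on d 2. They were 20.9, 22.1 and 41.8 CPM on d 7, so that the median of weaned calves remained between 19.6 and 22.1 CPM on all 4 days. In control calves they were 15.4, 17.0 and 57.8 CPM on d 0, and 14.7, 19.0 and 36.2 CPM on d 1. They were 19.4, 32.8 and 79.5 CPM on d 2, and 12.4, 22.3 and 42.2 CPM on d 7. The highest group median was thus that of control calves on d 2, where calves 1755, 1789 and 1803 all exceeded 40 CPM. Means ran from 20.0 ± 2.92 CPM (SD, n = 6) in weaned calves on d 0 to 41.6 ± 52.7 CPM (SD, n = 6) in weaned calves on d 2, again with overlap in 7 of 7 neighbouring pairs.

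Weaned and control calves were compared on d 0, 1 and 2 to separate weaning from housing, with edgeR's quasi-likelihood F-test over all genes. Calls required an adjusted p (Benjamini-Hochberg) below 0.05 together with at least a 2-fold change. None of the 4 genes was called on any of these days, and neither was any other gene (0% of 13926, 14078 and 13949 genes tested). Before adjustment, p was under 0.05 for 868, 424 and 470 genes on d 0, 1 and 2, or 6.23%, 3.01% and 3.37%, and for 0 of the 4. By DESeq2 no gene was called on these days either, and by edgeR's exact test with a common dispersion 68, 40 and 75 genes were called, with 0 of the 4 among them. Because the libraries are of whole leukocyte preparations, a change in the share of a cell type cannot be told apart from a change in RNA per cell.

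Before housing, the means of all 4 genes were lower in calves that were to be weaned. These are the baseline libraries of the comparisons by which the genes were chosen, and a direction in them is in part fixed by that choice. CXCL10 had a mean of 9.09 CPM in weaned and 17.8 CPM in control calves, a log2 difference of -0.95 (SE 0.48, adjusted p = 0.624), and the exact permutation test of the treatment labels gave p = 0.0909. CD274 differed by -0.98 (SE 0.52, adjusted p = 0.624, exact permutation p = 0.169) and JAK2 by -0.54 (SE 0.29, adjusted p = 0.624, exact permutation p = 0.232). IL15RA differed by -0.27 (SE 0.31, adjusted p = 0.707, exact permutation p = 0.916). Calves of the treatments overlapped for every gene, and without control calf 1803 the IL15RA difference was 0.20 and that of CD274 -0.37.

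On d 1 the log2 differences were 0.20 (SE 0.42) for JAK2, -0.14 (SE 0.45) for CD274, -0.15 (SE 0.30) for IL15RA and -0.87 (SE 0.58) for CXCL10, with adjusted p between 0.959 and 0.966. For JAK2 the difference was -0.10 without weaned calf 1773, at 111 CPM, and 0.80 (SE 0.29, adjusted p = 0.290) without control calf 1755, at 134 CPM. On d 2 the differences were 0.50 (SE 0.36) for JAK2, 0.19 (SE 0.76) for CD274, 0.04 (SE 0.54) for IL15RA and -0.03 (SE 0.76) for CXCL10, with adjusted p of at least 0.950. The high library of each treatment set these values. Without weaned calf 1762 the d 2 differences were -1.08 for CD274, -0.98 for IL15RA and -1.44 for CXCL10, and without control calf 1789 they were 0.74, 0.38 and 0.41. For JAK2 the d 2 difference was 0.05 without weaned calf 1758.

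Within treatments, d 1 and, for control calves, d 2 were compared with d 0. JAK2 was higher on d 1 than on d 0 in all 6 weaned calves, with within-calf log2 changes from 0.15 to 1.32, and the mean was 36.4 CPM on d 0 and 57.1 CPM on d 1. Its log2 change was 0.62 (SE 0.26), which did not pass the adjustment over 14038 genes (adjusted p = 0.423, unadjusted p = 0.0312). An exact permutation of the signs of the 6 within-calf changes gave p = 0.0312, which is the smallest that 6 calves allow. Without calf 1773, the highest on d 1, the log2 change was 0.38 (SE 0.21, adjusted p = 0.828). Before adjustment, p was under 0.05 for 1456 genes, 10.4% of those tested, and for 1 of the 4 genes described here. The other log2 changes in weaned calves were 0.30 for CD274 (SE 0.45, adjusted p = 0.726), 0.00 for IL15RA (SE 0.24, adjusted p = 0.998) and -0.17 for CXCL10 (SE 0.53, adjusted p = 0.871), with 4, 3 and 4 of 6 calves higher on d 1. No gene was called by the quasi-likelihood test, 64 by the exact test, 1 by DESeq2 and 2 with calf as a block.

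In control calves on d 1, CD274 and CXCL10 were each lower than on d 0 in 5 of 6 calves. The exception was calf 1755 for CD274 (0.087) and calf 1759 for CXCL10 (0.27). Libraries of both calves resembled other calves more than their own, and both are in these tallies and their permutation tests. The log2 change was -0.57 (SE 0.53) for CD274 and -0.27 (SE 0.54) for CXCL10, and both had an adjusted p of 0.999 and an exact permutation p of 0.0938. Without calf 1755 these changes were -0.73 and -0.25, and without calf 1759 they were -0.66 and -0.46. The changes of JAK2 and IL15RA were -0.12 (SE 0.44) and -0.12 (SE 0.36), each with an adjusted p of 0.999. On d 2 IL15RA was higher than on d 0 in 4 of 6 control calves (log2 change 0.73, SE 0.38, adjusted p = 0.625, exact permutation p = 0.125), and the change was 0.32 without calf 1789 and 1.14 without calf 1803. It was 0.63 without calf 1755 and 0.73 without calf 1759, both among these 4 calves. Among the others, calves 1789 and 1802 were higher and calves 1763 and 1803 lower. CD274, CXCL10 and JAK2 had log2 changes of 0.16 (SE 0.57), 0.18 (SE 0.50) and -0.23 (SE 0.30) on d 2, with adjusted p of at least 0.735. Without calf 1789 the CD274 and CXCL10 values were -0.53 and -0.43. None of 13934 and 13859 genes was called in control calves on d 1 and d 2 (0%), with 107 (0.768%) and 705 (5.09%) at an unadjusted p under 0.05 and none of the 4 among them. DESeq2 called no gene on either day, and the exact test called 0 and 18.

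The treatment by day interaction on d 1, with calf as a block in a fit of 24 libraries, asks whether the change from d 0 differed between weaned and control calves. For JAK2 the change was larger in weaned calves by 0.87 on the log2 scale (SE 0.34, adjusted p = 0.200, exact permutation p = 0.0649). For CD274 it was larger by 0.86 (SE 0.36, adjusted p = 0.203, exact permutation p = 0.0541). For JAK2 and CD274 the values were 1.06 and 0.99 without control calf 1755, and 0.93 and 0.92 without control calf 1759. In a fit without the calf as a block they were 0.75 (SE 0.54) and 0.86 (SE 0.74), with adjusted p of 0.580 and 0.594 by the same test. The values were 0.30 for CXCL10 (SE 0.41, adjusted p = 0.667) and -0.03 for IL15RA (SE 0.25, adjusted p = 0.958). That of CXCL10 was 0.06 without control calf 1763 and 0.65 without weaned calf 1769. Two-sided p-values from the fit were under 0.05 before adjustment for 2 of the 4 genes and for 3301 of 14786 genes, or 22.3%. The same baseline libraries enter this test, with the same limit as on d 0. None was called (0%), and DESeq2 called 5 genes, without JAK2, and gave no adjusted p for CD274, IL15RA or CXCL10. The tests of single genes numbered 28 over the 7 comparisons.

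**Figure D2:**
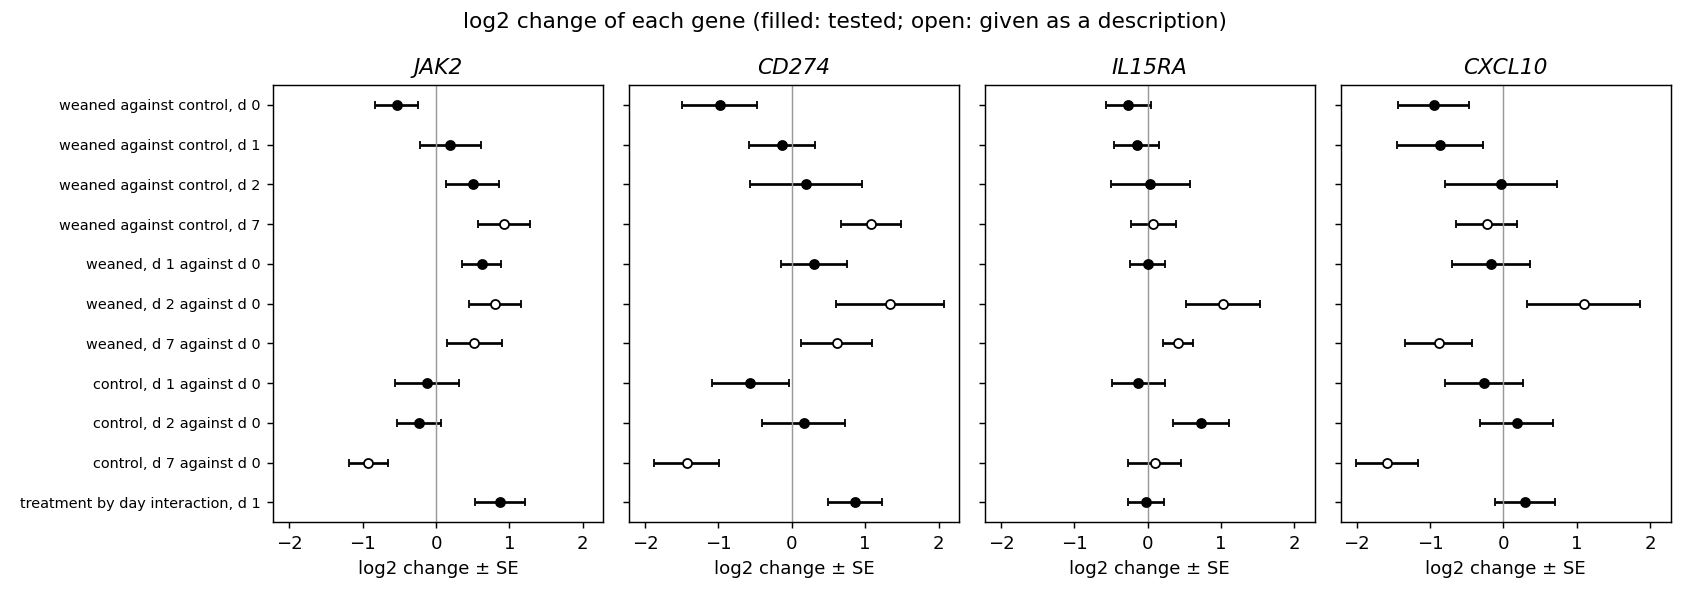
Log2 change of each gene in 11 comparisons (points, with bars for the SE of the edgeR quasi-likelihood fit). Filled points were tested and open points are described only. No tested comparison passed the adjustment, and the open points include those of CD274 and CXCL10 in control calves on d 7 (-1.44 and -1.59) and in weaned calves on d 2 (1.34 and 1.10).

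In weaned calves on d 2, the means of all 4 genes were above those of d 0. The log2 change was 1.34 (SE 0.74) for CD274, from 12.2 to 31.5 CPM, and 1.03 (SE 0.50) for IL15RA, from 20.0 to 41.6 CPM. It was 1.10 (SE 0.77) for CXCL10, from 9.09 to 20.2 CPM, and 0.80 (SE 0.35) for JAK2, from 36.4 to 64.0 CPM. A single library held much of these means, since weaned calf 1762 contributed 66.5% of the summed CPM of CD274, 59.6% of that of IL15RA and 69.7% of that of CXCL10. Without this calf the changes were 0.50, 0.06 and -0.21. With calf as a block and all calves kept they were 0.71 for CD274, 0.46 for IL15RA, 0.47 for CXCL10 and 0.63 for JAK2. For JAK2 the change was 0.79 without calf 1762 and 0.38 without calf 1758, and 5 of 6 calves were higher on d 2. CD274 was higher in 3 of 6 calves, and IL15RA and CXCL10 in 4 of 6.

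The level in calf 1762 on d 2 was 4.30 times that on d 0 for CD274, 6.23 times for IL15RA and 6.52 times for CXCL10. In control calf 1789 it was 7.76, 4.84 and 8.62 times that on d 0. The ratio for JAK2 was 1.72 in calf 1762 and 2.88 in calf 1789, so that both calves were higher on d 2 for all 4 genes. On d 7 the levels in calf 1762 were 15.8 CPM of CD274, 32.5 CPM of IL15RA and 5.46 CPM of CXCL10. In weaned calf 1758 the ratios of d 2 to d 0 were 4.54 for CD274, 3.12 for CXCL10 and 3.76 for JAK2, but 1.18 for IL15RA.

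In control calves on d 7, CXCL10 was lower than on d 0 in 6 of 6 calves, with within-calf log2 changes from -2.42 to -0.999. Its mean was 17.8 CPM on d 0 and 5.85 CPM on d 7 (log2 change -1.59, SE 0.42). CD274 was lower in 5 of 6 calves, from 24.3 to 8.67 CPM (log2 change -1.44, SE 0.44), and JAK2 in 5 of 6, from 53.7 to 27.5 CPM (log2 change -0.92, SE 0.27). IL15RA had no common direction, with 4 calves higher and 2 lower, and a log2 change of 0.09 (SE 0.36). These tallies include calves 1755 and 1759, whose r with their own calf on other days was at most 0.10. Over all genes, 516 of 13829 were called in this comparison (3.73%), 453 of them lower on d 7 (3.28%), and the genes described here were chosen by it, so nothing is read from that share. Without calf 1803 the CD274 change was -0.81, that of CXCL10 -1.29 and that of IL15RA 0.72. Without calf 1755 the changes were -1.47 for CD274, -1.68 for CXCL10, -0.74 for JAK2 and -0.23 for IL15RA. Without calf 1759 they were -1.41, -1.60, -0.94 and 0.02. The number of genes called fell to 0 without either of these calves or without calf 1763.

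In weaned calves on d 7 the changes from d 0 were 0.52 (SE 0.37) for JAK2, 0.61 (SE 0.49) for CD274, 0.42 (SE 0.21) for IL15RA and -0.88 (SE 0.46) for CXCL10. Without the libraries labelled calves 1758 and 1770 they were 0.01, -0.29, 0.54 and -1.38. The CD274 change was 1.10 without calf 1762, and that of IL15RA 0.24 without calf 1809, its highest library on d 7. CXCL10 was lower in 4 of 6 calves and IL15RA higher in 5 of 6, tallies that include the libraries labelled calves 1758 and 1770. In the other 4 calves CXCL10 was lower and IL15RA higher in each. By the quasi-likelihood test none of 14026 genes was called in this comparison, and none of 13984 in weaned calves on d 2. Genes were called in both by edgeR's exact test, and on d 7 by DESeq2 as well, as given below.

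Between treatments on d 7, JAK2 was higher in weaned calves by 0.92 on the log2 scale (SE 0.35) and CD274 by 1.08 (SE 0.41). The differences were 0.08 (SE 0.31) for IL15RA and -0.23 (SE 0.41) for CXCL10, and the treatments overlapped for all 4 genes. That of IL15RA was -0.095 without weaned calf 1809 and 0.28 without control calf 1755. Without the libraries labelled calves 1758 and 1770 the JAK2 difference was 0.45 and the CD274 difference 0.44. Without weaned calf 1809, the lowest for JAK2 on d 7, they were 1.10 and 1.23. With all calves no gene of 13932 was called by the quasi-likelihood test, while 26 were by DESeq2 and more by the exact test with a common dispersion. This comparison was also used to choose the genes described here, so their own calls are not read. The comparison shares its control libraries with that of control calves on d 7 against d 0, in which JAK2 and CD274 were lower on d 7.

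**Figure D3:**
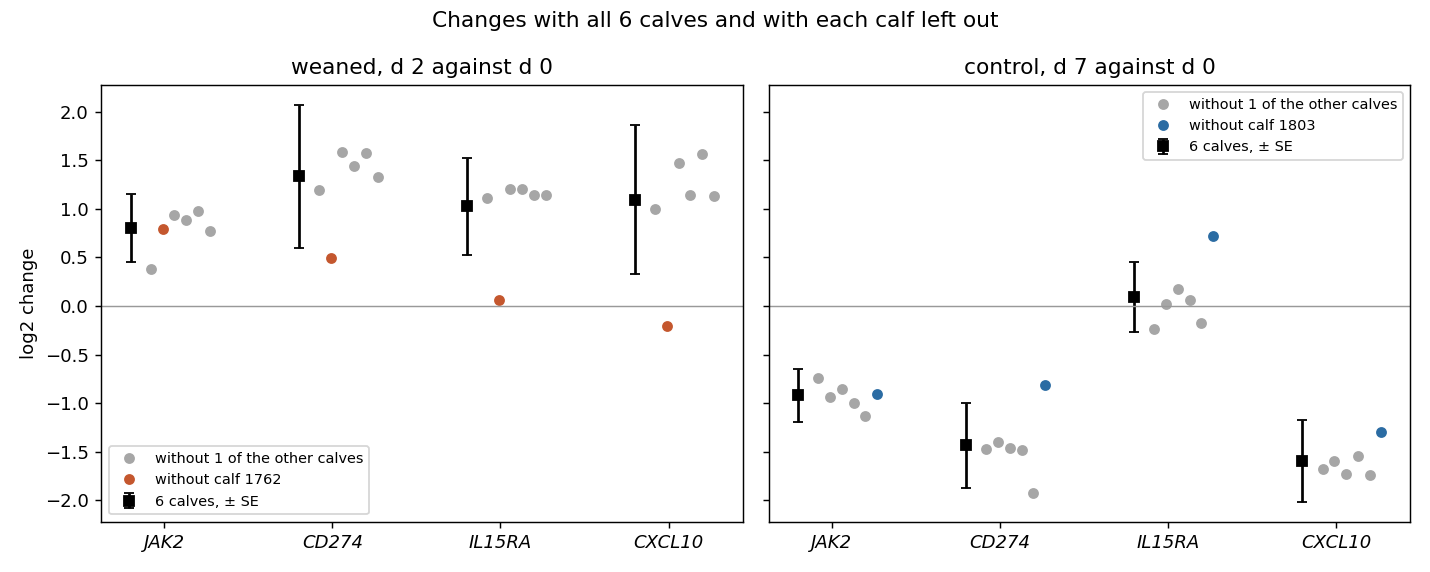
Log2 changes with all 6 calves (black squares, with bars for the SE) and after the removal of 1 calf at a time (circles), for weaned calves on d 2 and control calves on d 7, both against d 0. Without weaned calf 1762 (orange) the d 2 changes of CD274, IL15RA and CXCL10 were 0.50, 0.06 and -0.21, and without control calf 1803 (blue) the d 7 change of CD274 was -0.81.

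The genes were then compared with each other over the 12 calves of d 0 and of d 1, as log2(CPM + 1) relative to the treatment mean. This gave 12 correlations (6 pairs on 2 days), each with 100000 permutations of calves within treatment, two-sided and adjusted over the 12. CD274 and CXCL10 had Pearson's r of 0.72 on d 0 (p = 0.0138, adjusted p = 0.0551, permutation test) and Spearman's rho of 0.81 (p = 0.00605, adjusted p = 0.0363, permutation test). JAK2 and CD274 had r of 0.74 on d 0 (p = 0.0112, adjusted p = 0.0551, permutation test) and rho of 0.80 (p = 0.00269, adjusted p = 0.0323, permutation test). These pairs passed the adjustment by rank and not by Pearson's r. The d 0 libraries are the baseline of the comparisons by which the genes were chosen, so the d 0 correlations are not independent of that choice. Without the 2 calves farthest from the median of the first-named gene, r was 0.65 for CD274 and CXCL10 and 0.60 for JAK2 and CD274.

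On d 1 the same pairs had r of 0.79 (p = 0.00711, adjusted p = 0.0551, permutation test) and 0.68 (p = 0.0197, adjusted p = 0.0592, permutation test), with rho of 0.71 and 0.75 (adjusted p of 0.0653 and 0.0536). Without the 2 farthest calves r was 0.61 and 0.54. CD274 and IL15RA had r of 0.66 on d 0 (p = 0.0346, adjusted p = 0.0803, permutation test; rho of 0.43, adjusted p = 0.238), which was 0.02 without calves 1762 and 1803 and so rested on them, and 0.13 on d 1. JAK2 and CXCL10 had r of 0.60 on d 0 (p = 0.0401, adjusted p = 0.0803, permutation test; rho of 0.52, adjusted p = 0.168), which was 0.22 without calves 1789 and 1809. The remaining 5 correlations, which include JAK2 and IL15RA on both days, had r from -0.45 to 0.38 with adjusted p of at least 0.246, and rho from -0.31 to 0.59 with adjusted p of at least 0.163, by permutation. Libraries were run on 8 flowcells, which hold too few calves of a day to give a value within each.

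Over all 48 libraries (4 per calf, so not independent), relative to the group mean, r was 0.82 for CD274 and CXCL10, 0.71 for JAK2 and CD274, 0.61 for CD274 and IL15RA, 0.53 for JAK2 and CXCL10, 0.50 for IL15RA and CXCL10, and 0.07 for JAK2 and IL15RA. These are descriptions without a test. Without weaned calf 1762 and control calf 1789 on d 2, r was 0.76 for CD274 and CXCL10, 0.43 for CD274 and IL15RA, 0.28 for IL15RA and CXCL10 and -0.04 for JAK2 and IL15RA. On d 2 the r of CD274 was 0.73 with JAK2, 0.97 with CXCL10 and 0.90 with IL15RA, and 0.78, 0.92 and 0.75 without these libraries. On d 7 the r of CD274 was 0.86 with JAK2, 0.50 with CXCL10 and 0.04 with IL15RA.

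JAK2 followed the main axis of variation between libraries. The first principal component of the group-centred values of 11884 genes held 42.7% of the variance, and its r over 48 libraries was 0.89 with JAK2, 0.47 with CD274, 0.36 with CXCL10 and -0.31 with IL15RA. For 43.4% of all genes this r exceeded 0.7 in size. The component had r of 0.77 with the number of genes with a count and of 0.36 with log2 total counts, and the part of either in the JAK2 values was not tested. Its 5 highest libraries were those with the 5 highest JAK2 levels, namely weaned calf 1758 on d 2 and d 7, control calf 1755 on d 1 and d 0, and weaned calf 1773 on d 1. With the component held, r over the 48 libraries was 0.79 for JAK2 and IL15RA, against 0.07 without, and 0.90 for CD274 and IL15RA. It was 0.72 for JAK2 and CD274 and 0.80 for CD274 and CXCL10.

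**Figure D4:**
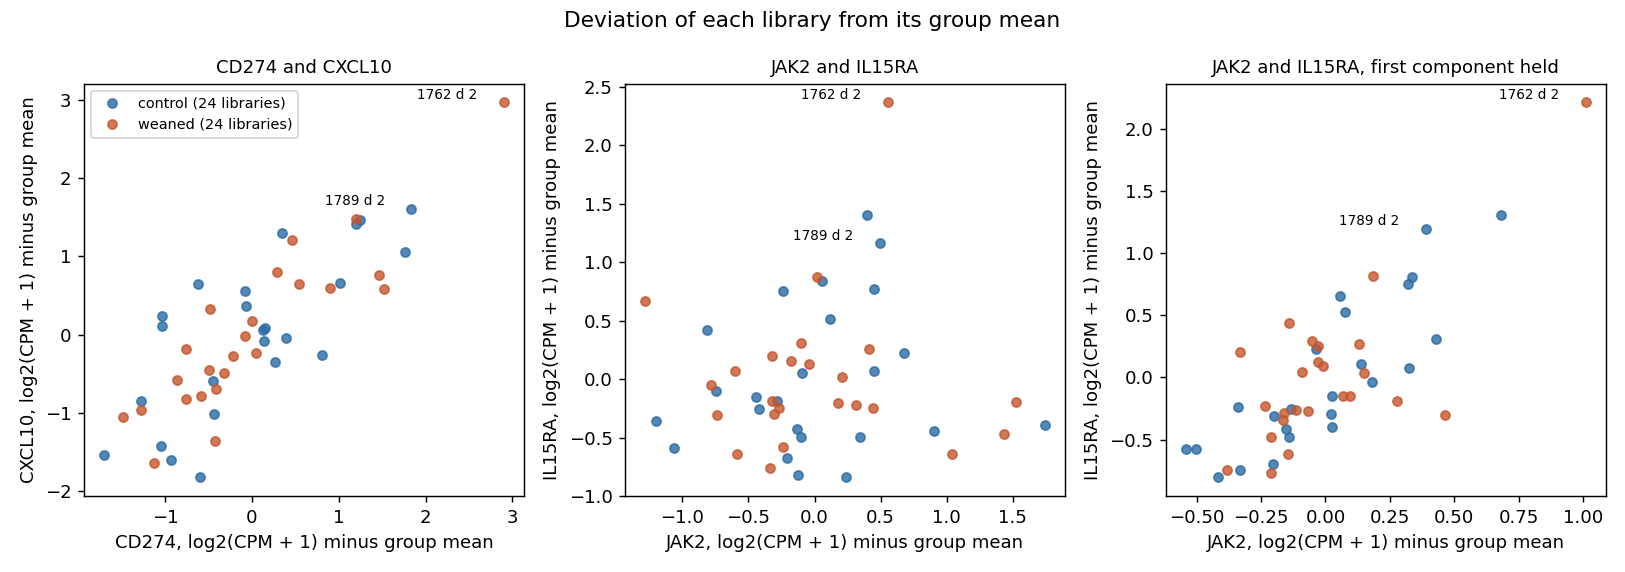
Deviation of each of 48 libraries from its group mean in log2(CPM + 1), control libraries in blue and weaned libraries in orange. CD274 and CXCL10 deviate together (r = 0.82), JAK2 and IL15RA do not (r = 0.07), and the third panel shows JAK2 and IL15RA after the first principal component is held (r = 0.79).

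For each gene, the 5 genes with a symbol whose group-centred pattern was most like it were taken from 11883 genes over the 48 libraries. Symbols were at hand for 644 genes, all of them listed as changed in the study, so the nearest genes overall mostly have none. For JAK2 these were RICTOR (r = 0.94), a subunit of the mTOR complex that phosphorylates AKT, TGFBR1 (0.93), the type I receptor of TGF-beta, STAM2 (0.92), an endosomal sorting adaptor, CUL4B (0.92), a ubiquitin ligase scaffold, and SENP1 (0.92), a SUMO protease. For JAK2, 2316 genes had an r above 0.7, or 19.5% of those compared. That share was 1.26% for CD274, 0.943% for IL15RA and 0.673% for CXCL10.

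For CD274 the nearest were TEC (r = 0.91), a tyrosine kinase of blood cells, CXCL10 (0.82), PBEF1 (0.79), the enzyme of NAD synthesis also named NAMPT, TIAM2 (0.78) and DDX58 (0.78), the cytosolic RNA sensor RIG-I. For CXCL10 they were CD274 (0.82), TEC (0.82), DDX58 (0.69), KYNU (0.66), an enzyme of tryptophan breakdown, and PBEF1 (0.66). TEC, DDX58 and PBEF1 thus stood in both lists. ENSBTAG00000034875, a gene without a symbol here, ranked first for both, with r of 0.92 and 0.88. For IL15RA they included ALPL (0.79), alkaline phosphatase, TIAM2 (0.75), SLC6A2 (0.71) and TRPC5 (0.69), a cation channel. Without weaned calf 1762 and control calf 1789 on d 2, r was 0.54 for SLC6A2 and 0.76 for ALPL with IL15RA, and 0.89 for TEC and 0.82 for DDX58 with CD274.

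Of 131 genes listed for interferon, PD-1, interleukin 15, CXCR3 and inflammatory signalling, 14 could be matched, and 10 besides the 4 described. STAT genes, CXCL9 and CXCL11 could not be matched by symbol and were not analysed here. Interferon gamma itself was almost uncounted, with 38 counts of IFNG over 48 libraries and a median of 0, and IFNK, a type I interferon, had 21 counts. The 10 genes, of which 8 to 10 passed the filter in a comparison, had no call in any of the 7 tested comparisons. At an unadjusted p under 0.05, 4 were higher and 0 lower in the interaction on d 1 (beside 22.3% of all genes in either direction), and 2 higher and 0 lower in weaned calves on d 1 (beside 10.4%). In weaned against control calves 0 were higher and 3 lower on d 0 (beside 6.23%), and 2 higher and 0 lower on d 2 (beside 3.37%). In control calves on d 2 they were 0 higher and 2 lower (beside 5.09%), and 0 in either direction on d 1 in control calves and between treatments on d 1. Symbols were at hand only for genes listed as changed in these libraries, so nothing is read from these counts against all genes.

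Among the interferon-stimulated genes of the list, 3 of 43 were matched. DDX58, at a median of 86.6 CPM, had r of 0.78 with CD274, 0.75 with JAK2, 0.69 with CXCL10 and 0.15 with IL15RA over 48 libraries. TNFSF10, the death ligand TRAIL, had r of 0.73 with JAK2, and PNPT1, a mitochondrial exoribonuclease, r of 0.87. In weaned calf 1762 on d 2, where CD274, IL15RA and CXCL10 were at their highest, DDX58 was at 147 CPM and ranked 6, TNFSF10 at 55.1 CPM and ranked 11, and PNPT1 at 26.7 CPM and ranked 10 of 48. Of the PD-1 list, CD80, the ligand of CD28 and CTLA4 on antigen-presenting cells, had r of 0.91 with JAK2 and 0.58 with CD274, and BTLA, an inhibitory receptor of lymphocytes, r of 0.76 with JAK2 and 0.32 with CD274. ICOS, a co-stimulatory receptor of T cells, had r of 0.74 and 0.33, and CTLA4, an inhibitory receptor of T cells, r of 0.29 and 0.08. Of all genes compared, 19.5% had an r above 0.7 with JAK2 and 1.26% with CD274, so nothing is read from the JAK2 values. In weaned calf 1762 on d 2, CD80 ranked 8 of 48, BTLA 37, ICOS 33 and CTLA4 34. In control calf 1789 on d 2, DDX58 ranked 14, TNFSF10 7 and PNPT1 16, CD80 and BTLA both 23, ICOS 21 and CTLA4 42.

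The cell composition of the libraries could not be checked from the counts, because 16 of 84 marker genes were matched and none of the 4 leukocyte, 12 neutrophil and 8 B cell markers. TRAT1, the T cell marker matched (1 of 10), was at 10.6 to 102 CPM and had r of 0.74 with JAK2 and -0.33 with IL15RA. An r above 0.7 with JAK2 was reached by 19.5% of the genes compared. Of the NK and cytotoxic cell markers 3 of 10 were matched (KLRD1, KLRK1 and GZMA), with a summed level of 6.91 to 79.9 CPM, and KLRK1 was the most abundant. KLRD1 had r of 0.35 with JAK2 and -0.61 with IL15RA. The eosinophil and basophil markers (4 of 8) summed to 17.1 to 181 CPM, with GATA1 the most abundant. The dendritic cell markers (2 of 8) summed to 4.19 to 50.7 CPM with FCER1A the most abundant, and MARCO, the monocyte marker matched (1 of 10), had a median of 0.24 CPM. The platelet markers (2 of 7) summed to 0.50 to 31.1 CPM, most of it PPBP, and the erythroid markers (3 of 7) to 2.18 to 65.3 CPM, most of it HBB. In weaned calf 1762 on d 2, several of these markers were near their lowest. KLRD1 ranked 47 of 48 there, GZMA 44 and KLRK1 35, and CPA3 and MS4A2 both ranked 48, with GATA1 at 18 and IL5RA at 28. KLRD1, CPA3 and MS4A2 were at 0.43 CPM each, below the 1.29 CPM that 3 counts give in this library. FLT3 ranked 39, FCER1A 19 and TRAT1 18, and MARCO was at 0. GP5 ranked 1 (2.58 CPM) and PPBP 30, HBB 16 and ALAS2 15, and SLC4A1 was at 0. In control calf 1789 on d 2, GZMA ranked 4, KLRK1 23 and KLRD1 30, CPA3 14, GATA1 41, and IL5RA and MS4A2 43. There MARCO ranked 6, TRAT1 28, FLT3 42, FCER1A 36, GP5 11, PPBP 34, HBB 5, and ALAS2 and SLC4A1 both 9. The part of cell composition in the levels of the 4 genes was not tested.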

How the data were processed

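RNA from total leukocytes, collected after lysis of red blood cells, was sequenced as 36 bp single reads, 1 library per lane on 8 flowcells. Per the labels, the deposited values are raw counts of reads per Ensembl gene on Btau4.0. The authors aligned reads with Bowtie 0.12.7 without mismatches, discarded reads that aligned more than once, kept 1 read per position and counted with HTSeq 0.4.6p2; keeping 1 read per position compresses high counts. Use of strand was not stated.

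Genes with at least 10 counts over the libraries compared were fitted with edgeR 4.0.16 (TMM, quasi-likelihood F-test) in R 4.3.3. DESeq2 1.42.0 and edgeR's exact test were alternatives. On simulated data for weaned against control calves on d 1, 100% of the genes with planted 4-fold changes were recovered, with 5 false calls among 14086 genes. For the interaction these were 94.5% and 10 among 14813. Correlations used log2(CPM + 1). No libraries were identical. Symbols of 644 genes came from orthologs listed by the study. The 4 genes, lists and tests were chosen with earlier results of these data known. Named genes were the 5 of highest r per gene and those of the lists; genes named for their highest pair of libraries, or in the closing section, were chosen after their values were seen. One gene that these rules name is not reported here. Numbers mark calves, so samples pair by design: the libraries of the same calf on d 0 and on d 1, 2 and 7 had a mean r of 0.45, 0.26 and 0.23 (weaned) and 0.48, 0.33 and 0.22 (control). The lowest r of a calf was 0.24, -0.33 and -0.42 (weaned) and -0.47, 0.04 and -0.09 (control). Within its treatment, the d 0 library was closest to its own calf for 4, 2 and 2 of 6 weaned and 4, 5 and 3 of 6 control calves.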

Additional observations from a re-analysis of the deposited data

Results flagged for a closer look

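In 9 of 32 groups (4 genes, 8 groups of 6 calves), the highest calf stood apart from the other 5 by more than Dixon's critical value of 0.625, a value that chance passes in about 1 in 20 groups of normally distributed values. CPM are skewed to the right, and the share that chance gives on them was not measured. Many of these groups are also those of the comparisons by which the genes were chosen. The library of weaned calf 1762 on d 2 is counted once for each of CD274, IL15RA and CXCL10. The count is therefore not read against that share. Weaned calf 1762 on d 2 stood apart for CD274 (126 CPM, with a median of 8.98 CPM in the other calves), for IL15RA (149 CPM against 20.1 CPM) and for CXCL10 (84.4 CPM against 5.74 CPM). Control calf 1803 on d 0 stood apart for CD274 (66.8 CPM against 17.8 CPM) and IL15RA (57.8 CPM against 16.4 CPM). For CD274, the library labelled weaned calf 1758 on d 7 (46.9 CPM against 13.3 CPM) and control calf 1802 on d 7 (17.1 CPM against 7.55 CPM) did so too. For JAK2 this was true of control calf 1755 on d 1 (134 CPM against 32.2 CPM) and weaned calf 1773 on d 1 (111 CPM against 46.9 CPM). No low calf stood apart in any group. Control calf 1789 on d 2, the second highest library for 3 of the genes, did not pass, because calf 1803 was also high in its group.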

How the results depend on the processing

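None of the 28 tested changes of single genes was called under any of 452 alternatives, of which 3 (DESeq2 for CD274, IL15RA and CXCL10 in the interaction) gave no adjusted p. The lowest adjusted p was 0.00450, for CD274 in weaned against control calves on d 0 by the exact test with a common dispersion, with a change under 2-fold. By the exact test, the genes called numbered 68, 40, 75 and 865 in weaned against control calves on d 0, 1, 2 and 7, 64, 62 and 38 in weaned calves on d 1, 2 and 7 against d 0, and 18 in control calves on d 2. DESeq2 called 26 genes between treatments on d 7, 1 each in weaned calves on d 1 and d 7, and 5 in the interaction. With all 48 libraries in 1 fit, 1 gene was called in control calves on d 7. Without 1 calf, calls ranged from 0 to 1086 in control calves on d 7, from 0 to 1137 between treatments on d 7, and from 0 to 1 in the interaction.

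The calf as a replicate block gave 2 calls in weaned calves on d 1, where the main test gave 0, and log2 changes of -0.0094 for CD274 and -0.059 for CXCL10 in control calves on d 2. Without the block in the interaction IL15RA was 0.15. The block changed no call among the tested changes of the 4 genes. With flowcell as a block, CD274 was -0.82, IL15RA -0.36 and CXCL10 -1.03 on d 2 between treatments, and CD274 was 0.49 and JAK2 0.92 on d 1. CXCL10 on d 2 was 0.058 by DESeq2. IL15RA in weaned calves on d 1, near 0 in the main test, was 0.0148 with RLE size factors, 0.0146 by DESeq2, 0.0122 without a filter, 0.0142 with the filterByExpr filter and 0.0040 with all 48 libraries. Without the libraries labelled calves 1758 and 1770, CD274 in weaned calves on d 7 was -0.29.

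Leaving out 1 calf turned these log2 changes, whose lowest and highest values follow. Between treatments they were -0.38 to 0.20 for IL15RA on d 0, -0.10 to 0.80 for JAK2, -0.49 to 0.21 for CD274 and -0.38 to 0.054 for IL15RA on d 1, and -1.08 to 0.74 for CD274, -0.98 to 0.38 for IL15RA and -1.44 to 0.41 for CXCL10 on d 2. In weaned calves on d 1 they were -0.015 to 0.67 for CD274, -0.16 to 0.12 for IL15RA and -0.37 to 0.14 for CXCL10. In control calves they were -0.51 to 0.081 for JAK2 and -0.23 to 0.15 for IL15RA on d 1, and -0.53 to 0.62 for CD274 and -0.43 to 0.44 for CXCL10 on d 2. In the interaction IL15RA was -0.21 to 0.095, and between treatments on d 7 it was -0.095 to 0.28. Without a change of sign, IL15RA was 0.062 to 1.21 in weaned calves on d 2, CXCL10 0.064 to 0.65 in the interaction, and JAK2 0.38 to 0.73 in weaned calves on d 1. Between treatments CXCL10 was -1.37 to -0.47 on d 1, and CD274 -1.45 to -0.37 and JAK2 -0.71 to -0.34 on d 0. In control calves CD274 was -0.73 to -0.29 and CXCL10 -0.46 to -0.14 on d 1, and IL15RA 0.32 to 1.14 and JAK2 -0.48 to -0.12 on d 2. The cause was not tested.

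A pseudocount of 0.5 or RLE size factors left each of the 12 correlations on its side of the threshold. With the first principal component as a covariate, an alternative chosen after seeing the data, r on d 1 was 0.61 for JAK2 and IL15RA (adjusted p = 0.0888, permutation test), -0.29 for JAK2 and CXCL10 and 0.78 for CD274 and IL15RA (adjusted p = 0.0283, permutation test). Depth limits CXCL10 most, with a median of 26 counts per library.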

Other observations

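Of the 10 matched genes of interferon and co-stimulation signalling, CD80 had the lowest unadjusted p in the interaction on d 1, with a log2 change larger by 1.04 in weaned than in control calves (SE 0.33, adjusted p = 0.200). DDX58 was larger by 0.66 (SE 0.27, adjusted p = 0.200), TNFSF10 by 0.52 (SE 0.25, adjusted p = 0.223) and IL1A, which encodes interleukin 1 alpha, by 2.16 (SE 0.96, adjusted p = 0.211), the last on 116 counts over 48 libraries. Of the 10 genes only IFNG went the other way, at -0.18 (SE 1.27). In weaned calves on d 1, CD80 and BTLA had log2 changes of 0.69 (SE 0.25) and 0.87 (SE 0.39), both with an adjusted p of 0.423. Of the 9 genes tested there, only IFNG was lower (-0.95, SE 1.04). On d 0, before housing, IL1A, BTLA and CD80 differed between weaned and control calves by -1.83, -0.73 and -0.60, with an adjusted p of 0.624 each. Of the 9 genes tested on d 0, only ICOS was higher (0.17, SE 0.34). These values share the d 0 libraries. None passed the adjustment over all genes in edgeR's quasi-likelihood test. Of all genes, 22.3% had an unadjusted p under 0.05 in the interaction, 10.4% in weaned calves on d 1 and 6.23% between treatments on d 0. Symbols were at hand only for genes listed as changed in these libraries, so nothing is read from these values or their directions.

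IL1A was at 2.58 CPM in weaned calf 1762 and 2.60 CPM in control calf 1789 on d 2, where it ranked 3 and 2 of 48 libraries. Its median was 0.50 CPM, and 3 counts equal 1.29 and 0.78 CPM in these libraries, so the ranks rest on few counts. The gene was picked after its values were seen, and nothing is read from the ranks.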
